A study of Mus musculus with 6 samples.

Results

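The genes described here are 33 genes of DNA replication that are known targets of E2F transcription factors, chosen by symbol from textbook knowledge of S phase. They cover origin licensing, helicase activation, cyclin E, the replication fork, nucleotide supply and chromatin assembly. Of the 33 members, 31 were measured by a probe set annotated with that symbol alone, out of 12393 genes with such a probe set on the array. Gins2 and Chaf1a had no probe set of their own in the annotation used here and were not analysed. A probe set is a group of short probes for one transcript, and its deposited signal is an intensity on a linear scale. Where a gene had several probe sets, the one with the highest mean over the arrays stood for it, and each of the 31 chosen in this way passed the filter on dim probe sets.

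Lung metastases of mouse mammary tumours were profiled on 6 Affymetrix arrays. One group was labelled Myc E2F2 KO (called KO here, 3 arrays), and the other Myc E2F3 Het, heterozygous for loss of E2F3 (called Het here, 3 arrays). All mice were FVB, and all tumours were driven by MMTV-Myc, in which a promoter active in mammary epithelium expresses Myc. Metastases were frozen at endpoint, and no animal age was given. The titles of the 3 Het arrays carry the same number, without a stated meaning, whereas the KO titles carry 3 different numbers. The 3 Het arrays were therefore averaged into 1 sample for the test. No metastases with both E2F2 and E2F3 intact entered the comparison, so each difference below sets one altered E2F background against the other.

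E2F factors bind the promoters of genes needed to enter and complete S phase, and are held in check by the retinoblastoma family until cyclin-dependent kinases release them. E2F1, E2F2 and E2F3 are known as the activating members of the family. Their targets include the proteins that load the MCM helicase at origins, the enzymes that copy DNA and those that supply nucleotides and package new chromatin. Myc also drives many growth and S phase genes and raises the expression of activating E2Fs.

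The promoters of 4 members are shown, because these genes had the most negative and the most positive moderated t statistic among the licensing genes (Cdt1 and Cdc6) and among the fork genes (Prim1 and Pola1). Each window runs from 250 bases before to 50 bases after the annotated start, in the direction of the gene, from RefSeq on GRCm38.p6. The windows lie at chr8:122567765-122568064 on the plus strand for Cdt1, chr11:98907901-98908200 on the plus strand for Cdc6, chr10:128014965-128015264 on the plus strand for Prim1 and chrX:93632106-93632405 on the minus strand for Pola1. Capitals mark matches to 4 spellings of the E2F site, namely TTCCCGC or TTGGCGC or else TTCGCGC or lastly TTGCCGC, which were searched on both strands and may overlap one another. A match on the reverse strand appears in these sequences as its reverse complement.
Cdt1: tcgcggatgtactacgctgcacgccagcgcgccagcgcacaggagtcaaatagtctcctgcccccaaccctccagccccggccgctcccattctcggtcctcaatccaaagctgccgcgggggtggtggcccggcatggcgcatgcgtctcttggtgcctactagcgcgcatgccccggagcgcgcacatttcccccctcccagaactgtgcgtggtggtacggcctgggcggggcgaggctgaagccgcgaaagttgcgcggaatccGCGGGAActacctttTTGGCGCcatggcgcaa
Cdc6: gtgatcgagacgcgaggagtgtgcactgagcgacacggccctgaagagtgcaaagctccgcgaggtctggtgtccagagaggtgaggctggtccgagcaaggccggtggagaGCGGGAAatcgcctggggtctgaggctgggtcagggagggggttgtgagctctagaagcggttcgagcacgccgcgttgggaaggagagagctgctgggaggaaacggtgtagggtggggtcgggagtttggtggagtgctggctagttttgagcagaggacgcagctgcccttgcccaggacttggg
Prim1: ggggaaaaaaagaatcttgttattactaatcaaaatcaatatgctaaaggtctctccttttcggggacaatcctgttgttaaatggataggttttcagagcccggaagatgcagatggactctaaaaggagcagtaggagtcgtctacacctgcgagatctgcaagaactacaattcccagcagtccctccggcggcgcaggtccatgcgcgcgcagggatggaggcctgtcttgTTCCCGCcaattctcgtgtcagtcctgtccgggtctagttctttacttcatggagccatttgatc
Pola1: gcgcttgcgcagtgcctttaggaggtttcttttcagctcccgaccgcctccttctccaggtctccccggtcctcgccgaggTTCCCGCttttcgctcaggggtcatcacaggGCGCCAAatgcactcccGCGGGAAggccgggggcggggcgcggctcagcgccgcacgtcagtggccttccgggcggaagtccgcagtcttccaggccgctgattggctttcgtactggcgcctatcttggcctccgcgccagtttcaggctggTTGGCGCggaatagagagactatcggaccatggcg

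Cdt1 held 2 matches, Cdc6 held 1, Prim1 held 1 and Pola1 held 4. The Prim1 match lay at bases -15 to -9 and the Cdc6 match at bases -138 to -132, counted from the start site. Of the 29 members with a window in the table, 19 held at least 1 match, or 65.5%, whereas 10.9% of all 27025 genes did. By role, a match stood in 7 of 8 licensing genes, 6 of 8 fork genes, 2 of 5 nucleotide genes and 4 of 5 chromatin genes with a window. It stood in 0 of 2 helicase activation genes, Mcm10 and Cdc45, and in 0 of 1 cyclin E genes, Ccne1. Among 36 other replication genes with a window, 58.3% held a match, and among 24 genes of G2 and mitosis 12.5% did. CACGTG, a motif bound by Myc and Max, stood in the windows of 13.8% of the members and of 8.09% of all genes. A match is a description of the letters and not a binding site.

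As a group, the replication genes were close to level between KO and Het metastases. On the log2(signal + 16) scale used for every difference here, 14 of the 31 were higher in KO and 17 lower, with a median KO minus Het difference of -0.03, beside -0.02 over all 13575 probe sets tested. The differences were small in size, with a median of 0.09 whatever the sign, against 0.18 over all probe sets. Each member stood on its brightest probe set, whereas all probe sets included dimmer ones, with mean signals down to 79.1. The part of signal level in this gap was not tested. For 26 of the 31 the difference lay within 0.25 of 0, for 30 within 0.5, and the largest in size was that of Ccne1. Standard errors of the fit ran from 0.18 to 0.55 with a median of 0.24, and 26 differences were smaller than their own standard error. With so few arrays, differences of this size could not be told from 0.

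No member passed the test. In limma, comparing the 3 KO samples with the averaged Het arrays, 0 of the 31 had a Benjamini-Hochberg adjusted p under 0.05, with 0% of all probe sets called, and the lowest adjusted p of a member was 0.9999. At an unadjusted p under 0.05 there were also 0 members, beside 2.22% of all probe sets, and the lowest unadjusted limma p was 0.188 for Cdt1. With each array taken as a sample, limma again called 0 members and 0 probe sets after adjustment, and 0 members had an unadjusted p under 0.05, beside 10.3% of all probe sets. No member had all KO arrays above all Het arrays, beside 7.82% of all probe sets, and 1 member, Prim1, had all KO arrays below all Het arrays, beside 8.91% of all probe sets. A p above the threshold does not show that the groups had the same level.

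**Figure D1:**
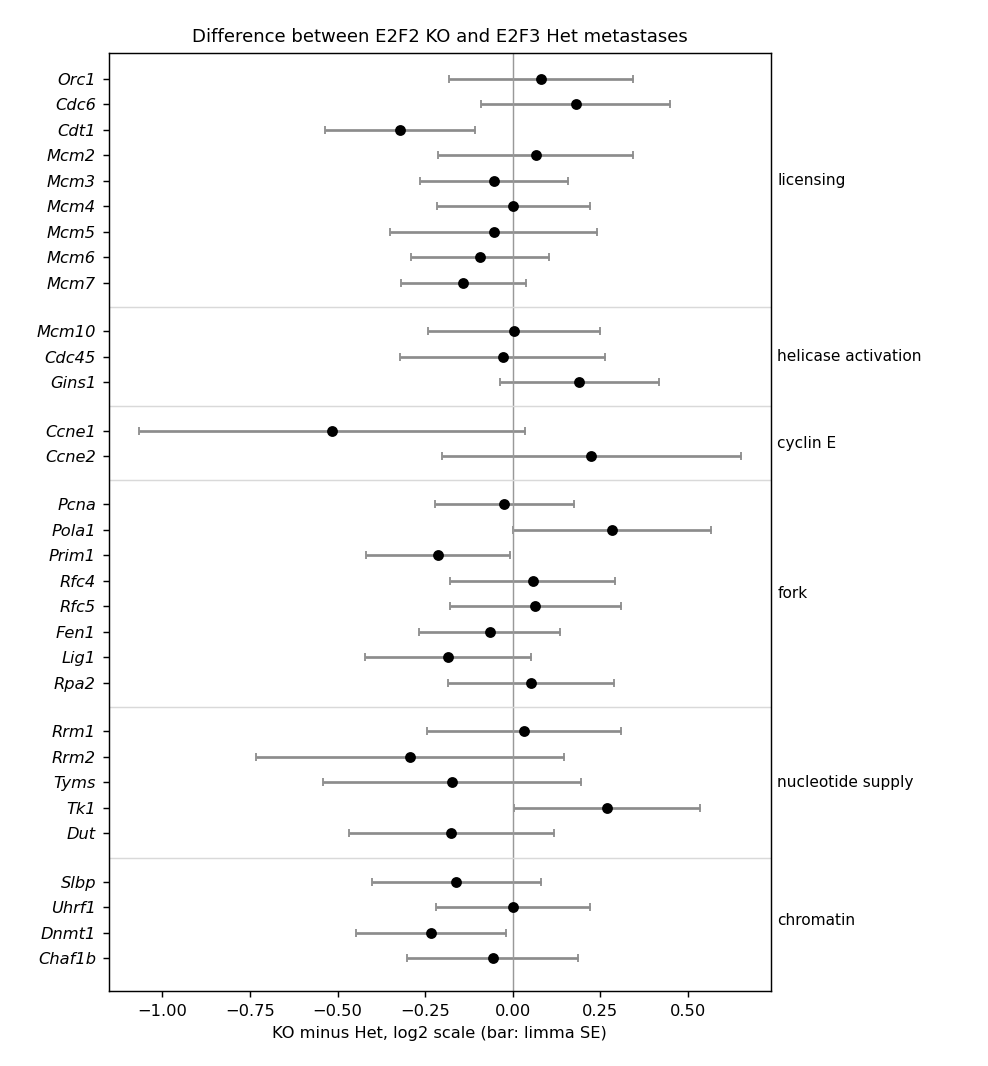
KO minus Het difference of each of the 31 measured members on the log2(signal + 16) scale, by role, with the standard error of the limma fit as the bar. Of the 31 points, 26 lie within 0.25 of 0, and Ccne1 at -0.52 has the longest bar, 0.55.

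Licensing genes load the MCM helicase onto origins in G1, with the origin recognition complex subunit Orc1, Cdc6 and Cdt1 acting as loaders and Mcm2 to Mcm7 forming the helicase ring. Of the 9 members, 4 were higher in KO and 5 lower, with a median of -0.05. Cdt1 (probe set 1424143_a_at) had signals of 2716, 2448 and 3103 in KO metastases, against 3063, 4029 and 3280.1 in Het metastases. Het replicate 2 stood highest, and KO replicate 3 lay above the lowest Het array. The difference was -0.32 ± 0.21 (SE of the fit). Cdc6 (probe set 1417019_a_at) had signals of 517, 492 and 388 in KO metastases, against 424, 372 and 426 in Het metastases. The 2 highest values were both KO, but the third KO array lay inside the Het range, and the difference was 0.18 ± 0.27 (SE). Both loaders had overlapping groups, with differences of opposite sign.

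On the brightest probe set of each gene, the MCM ring subunits were nearly level. Mcm7 (probe set 1438320_s_at) had signals of 3486, 3923 and 3778 in KO metastases, against 3885, 4738 and 3762 in Het metastases, with Het replicate 2 alone above the rest. Its difference of -0.14 ± 0.18 (SE) was the most negative of the 6 subunits. Mcm4 averaged 2105 ± 215 in KO, against 2106 ± 271 in Het (SD over the 3 arrays of a group, as for every mean below), and Mcm6 averaged 2545 ± 187 in KO and 2726 ± 348 in Het, with differences of 0.00 and -0.09. Mcm2 averaged 981 ± 167 in KO and 931 ± 95.4 in Het, Mcm3 1250.2 ± 51.8 in KO and 1302 ± 139.6 in Het, and Mcm5 1053 ± 207 in KO and 1080.0 ± 43.8 in Het. The differences of Mcm2, Mcm3 and Mcm5 ran from -0.05 to 0.07. Orc1 averaged 214 ± 19.5 in KO and 201 ± 18.7 in Het, a difference of 0.08. For all 7 of these genes the arrays of the groups overlapped.

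Helicase activation joins Cdc45 and the GINS complex, of which Gins1 is a subunit, to the MCM ring, with Mcm10 needed for the helicase to start unwinding. Gins1 (probe set 1452598_at) had signals of 606, 659.8 and 646 in KO metastases, against 519, 670.3 and 494 in Het metastases. The KO arrays lay close together, while the Het arrays held both the highest and the 2 lowest values, and the difference was 0.19 ± 0.23 (SE). Cdc45 (probe set 1416575_at) had signals of 210.0, 246 and 298 in KO metastases, against 228, 262 and 275 in Het metastases, so that the Het range lay wholly inside the KO range. Mcm10 averaged 444 ± 44.5 in KO and 443 ± 49.7 in Het. The differences were -0.03 for Cdc45 and 0.00 for Mcm10.

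The cyclin E genes were the most variable members. Cyclin E1 and cyclin E2, encoded by Ccne1 and Ccne2, activate the kinase Cdk2 at the start of S phase and are classical E2F targets. Ccne1 (probe set 1416492_at) had signals of 97.5, 222 and 269 in KO metastases, against 298, 229 and 276 in Het metastases. KO replicate 1 was far below the other 5 arrays, which overlapped, and the highest array was 3.05-fold above the lowest. The difference of -0.52 ± 0.55 (SE) was smaller than its error, and without KO replicate 1 it was -0.12. Ccne2 (probe set 1422535_at) had signals of 184, 361 and 343 in KO metastases, against 335, 154 and 268 in Het metastases. Here 2 arrays were low, KO replicate 1 and Het replicate 2, the range was 2.34-fold, and the difference was 0.22 ± 0.43 (SE), or 0.52 without KO replicate 1 and -0.073 without Het replicate 2. Both cyclin E genes were thus low on KO replicate 1, and only Ccne2 was low on Het replicate 2.

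At the fork, Pcna is the sliding clamp, Rfc4 and Rfc5 belong to the clamp loader, Pola1 and Prim1 are subunits of the polymerase alpha and primase complex that starts each strand, Fen1 and Lig1 finish Okazaki fragments, and Rpa2 belongs to the complex that coats single-stranded DNA. Of the 8 members, 4 were higher in KO and 4 lower, with a median of 0.01. Prim1 (probe set 1418369_at) had signals of 1367, 1383 and 1328 in KO metastases, against 1555, 1640.2 and 1537 in Het metastases. Each KO array was below each Het array, with little spread within either group, and the difference was -0.21 ± 0.21 (SE). For any gene separated in this way, the exact two-sided permutation test of 3 arrays against 3 gives p = 0.1, the smallest possible. That p therefore adds nothing to the separation, and it counts the 3 Het arrays as separate samples. Beside the 8.91% of all probe sets that separated in this direction, 1 of 31 members is a small share.

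Pola1 (probe set 1419397_at), in the same complex as Prim1, had signals of 423, 559 and 583 in KO metastases, against 437, 433 and 396 in Het metastases. KO replicates 2 and 3 were the highest arrays and KO replicate 1 lay among the Het arrays, with a difference of 0.28 ± 0.28 (SE), or 0.42 without KO replicate 1, opposite in sign to that of Prim1. Pcna (probe set 1417947_at) had signals of 5273, 6800.5 and 6379 in KO metastases, against 5679, 7202 and 5884 in Het metastases. The lowest array was a KO and the highest a Het, and the group difference was -0.02 ± 0.20 (SE). Rfc4 averaged 1239 ± 135 in KO and 1187 ± 61.6 in Het, Rfc5 1145 ± 134 in KO and 1091 ± 83.2 in Het, and Rpa2 702 ± 57.8 in KO and 682 ± 119.9 in Het, with differences from 0.05 to 0.06. Fen1 averaged 1796 ± 85.5 in KO and 1894 ± 289 in Het, a difference of -0.07, and Lig1 averaged 734 ± 66.5 in KO and 839.5 ± 120.1 in Het, a difference of -0.19.

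Genes of nucleotide supply spread further, with 2 higher and 3 lower in KO and a median of -0.17. Rrm1 and Rrm2 form ribonucleotide reductase, which makes deoxyribonucleotides, Tyms and Tk1 make thymidine nucleotides, and Dut removes dUTP. Rrm2 (probe set 1434437_x_at) had signals of 1725, 3759 and 2989 in KO metastases, against 3355, 2903 and 3677 in Het metastases. KO replicate 1 was the lowest array and KO replicate 2 the highest, a 2.18-fold range, and the difference was -0.29 ± 0.44 (SE), or 0.02 without KO replicate 1. Tk1 (probe set 1416258_at) had signals of 1037, 1019 and 784 in KO metastases, against 696, 927 and 725 in Het metastases. KO replicates 1 and 2 were highest and KO replicate 3 lay inside the Het range, with a difference of 0.27 ± 0.27 (SE). Rrm1, the partner subunit of Rrm2, averaged 1851 ± 343 in KO and 1791 ± 147 in Het, and Dut averaged 1108 ± 215 in KO and 1239 ± 82.2 in Het. Tyms was dim on the probe set used, at 78.9 ± 15.8 in KO and 90.0 ± 5.8 in Het, and detection calls were not used here. The differences were 0.03 for Rrm1, -0.18 for Dut and -0.17 for Tyms.

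Chromatin genes package the new strands: Slbp binds histone messenger RNA, Chaf1b is a subunit of the histone chaperone CAF-1, and Uhrf1 brings the maintenance methyltransferase Dnmt1 to hemimethylated DNA. Of the 4 measured, 3 were lower in KO and Uhrf1 was level, with a median of -0.11. Dnmt1 (probe set 1422946_a_at) had signals of 1300.3, 1477 and 1429.5 in KO metastases, against 1425, 1909 and 1645 in Het metastases. The lowest Het array lay below the 2 highest KO arrays, and the difference was -0.23 ± 0.21 (SE). Slbp (probe set 1460168_at) had signals of 1355, 1779.6 and 1575 in KO metastases, against 1627, 1952 and 1675 in Het metastases, overlapping through KO replicate 2, with a difference of -0.16 ± 0.24 (SE). Uhrf1 (probe set 1415810_at) had signals of 1009, 1116 and 1023 in KO metastases, against 937, 1487 and 825 in Het metastases. Its KO arrays lay inside the much wider Het range, and the difference was 0.00 ± 0.22 (SE). Chaf1b averaged 501 ± 49.1 in KO and 523 ± 78.3 in Het, a difference of -0.06.

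**Figure D2:**
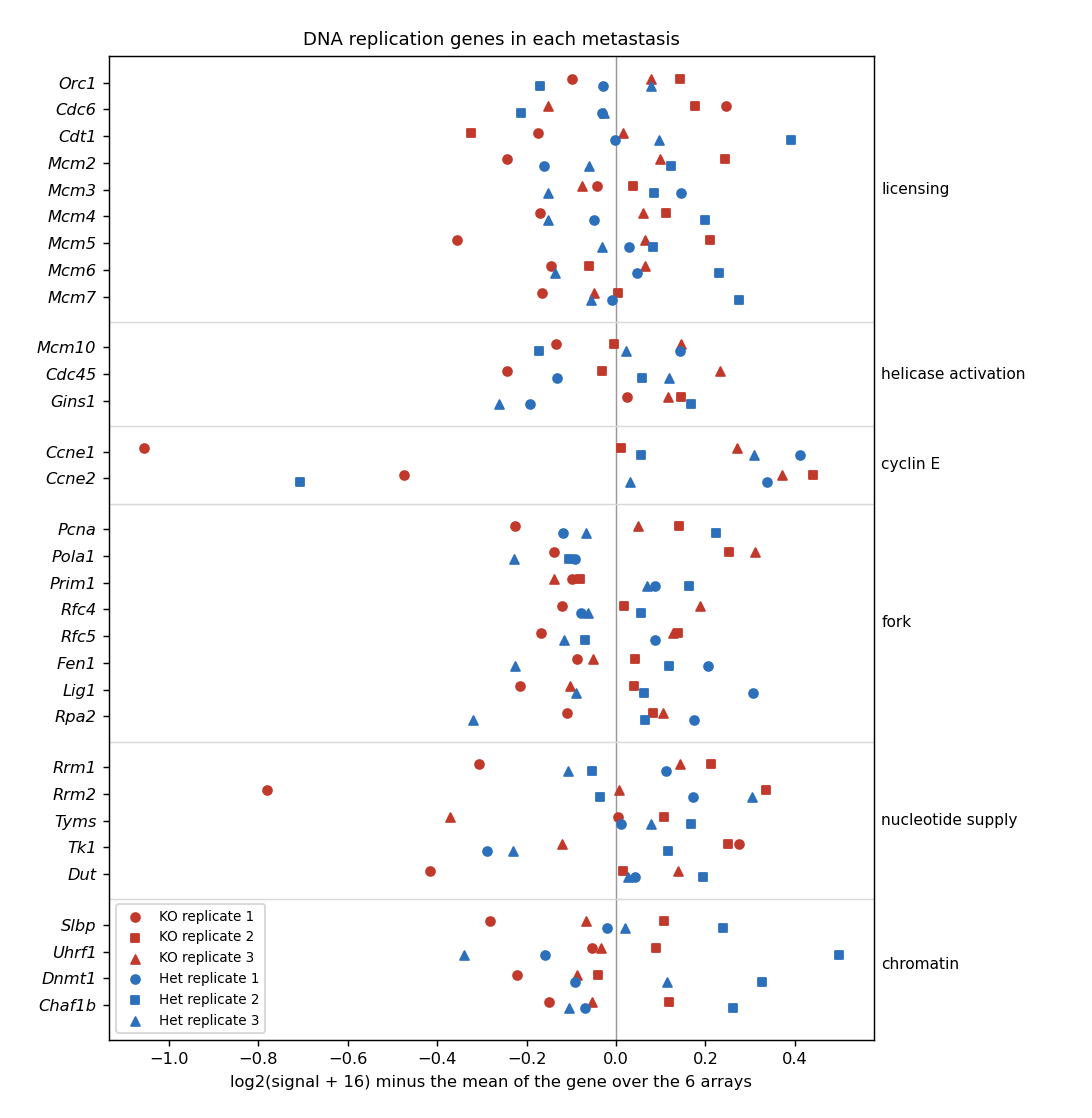
Level of each measured member on each array, as log2(signal + 16) minus the mean of that gene over the 6 arrays, with KO arrays in red above Het arrays in blue. KO replicate 1 is the lowest array for 17 of the 31 genes, and Prim1 has its 3 KO points left of its 3 Het points.

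One array, KO replicate 1, was low for many of the members. For the median member the highest array was 1.42-fold above the lowest, 24 of the 31 stayed under 1.5-fold, and Ccne1, Ccne2 and Rrm2 exceeded 2-fold. KO replicate 1 was the lowest array for 17 of the 31 members, or 54.8%, whereas it was the lowest for 21.8% of all probe sets tested. These were 5 of 9 licensing genes, 1 of 3 helicase activation genes, 1 of 2 cyclin E genes, 4 of 8 fork genes, 3 of 5 nucleotide genes and 3 of 4 chromatin genes. Cdc6 and Tk1 were the exceptions that stood highest on that array. At the other end, Het replicate 2 was the highest array for 13 members, or 41.9%, beside 17.2% of all probe sets, among them Cdt1, Mcm4, Mcm6, Mcm7, Pcna, Prim1 and Dnmt1. Het replicate 3 was the highest for 0 members.

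Averaged over the 31 members, the deviation from each gene's own mean was -0.20, 0.09 and 0.04 on the KO arrays, against 0.03, 0.08 and -0.05 on the Het arrays. The same average over all probe sets stayed between -0.04 and 0.03 on every array. KO replicate 1 was below 0 in each of the 6 roles, from -0.12 for helicase activation to -0.77 for cyclin E. Within groups, the median SD of the members was 0.17 in KO and 0.17 in Het, beside 0.22 in KO and 0.18 in Het over all probe sets. Here too, the brightest probe set of each member stands beside all probe sets, dimmer ones included. Without KO replicate 1, the median difference of the 31 members was 0.07 rather than -0.03, and 5 members, Rrm1, Pola1, Ccne2, Orc1 and Rfc5, then had both remaining KO arrays above all Het arrays. With that array left out, 12.9% of all probe sets did so, which fewer arrays make easier, against 5 of 31 members. Orc1 separated only narrowly, at 219.5 in KO replicate 3 against 219.4 in Het replicate 3. KO replicate 1 was the lowest array for most members, so leaving it out raised their KO levels by construction. No member passed the test without it.

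KO replicate 1 was also low for other genes of the cell cycle. It was the lowest array for 23 of 41 other replication genes and for 18 of 26 genes of G2 and mitosis, whose mean deviations on it were -0.17 and -0.27. The median KO minus Het difference was -0.07 for the other replication genes, of which 15 were higher and 26 lower in KO, and -0.08 for the genes of G2 and mitosis, of which 9 were higher and 17 lower. Neither list had a member past the adjusted threshold, and the counts whose arrays did not overlap were 0 higher and 5 lower of 41, and 2 higher and 3 lower of 26, beside 7.82% higher and 8.91% lower of all probe sets.

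KO replicate 1 also stood apart in markers of lung. Of the 16 lung alveolar markers on the array, 15 were highest on KO replicate 1, and the surfactant gene Sftpc was highest on KO replicate 2. Summed over these markers, the signal ran from 18345 to 84798 in KO metastases, against 29225 to 44568 in Het metastases. Sftpa1, another surfactant gene, had 12713, 3838 and 837 in KO metastases, against 4193, 1900 and 2156 in Het metastases. The summed signal of 15 mammary epithelial markers was 82183, 88088 and 93565 in KO metastases, against 95617, 99659 and 98295 in Het metastases, so that KO replicate 1 was lowest. It was also the lowest array for 8 of these 15 markers, whose mean deviation on it was -0.61. For 4 others, Krt8, Krt18, Krt7 and Foxa1, it was the highest array. Epcam and Cdh1 were above their own means there, by 0.20 and 0.05. The milk casein gene Csn2 ran from 12671 to 17785 in KO and from 16480 to 18776 in Het, whereas the milk protein gene Wap had 945, 3644 and 9295 in KO metastases, against 9346, 7217 and 9654 in Het metastases. The basal keratin gene Krt5 was dim on KO replicate 1, with 44.0, 1907 and 959 in KO metastases, against 1704, 395 and 583 in Het metastases. In such bulk samples, fewer tumour cells and less RNA per cell cannot be told apart, and the part of lung and mammary content in the levels of the replication genes was not tested.

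**Figure D3:**
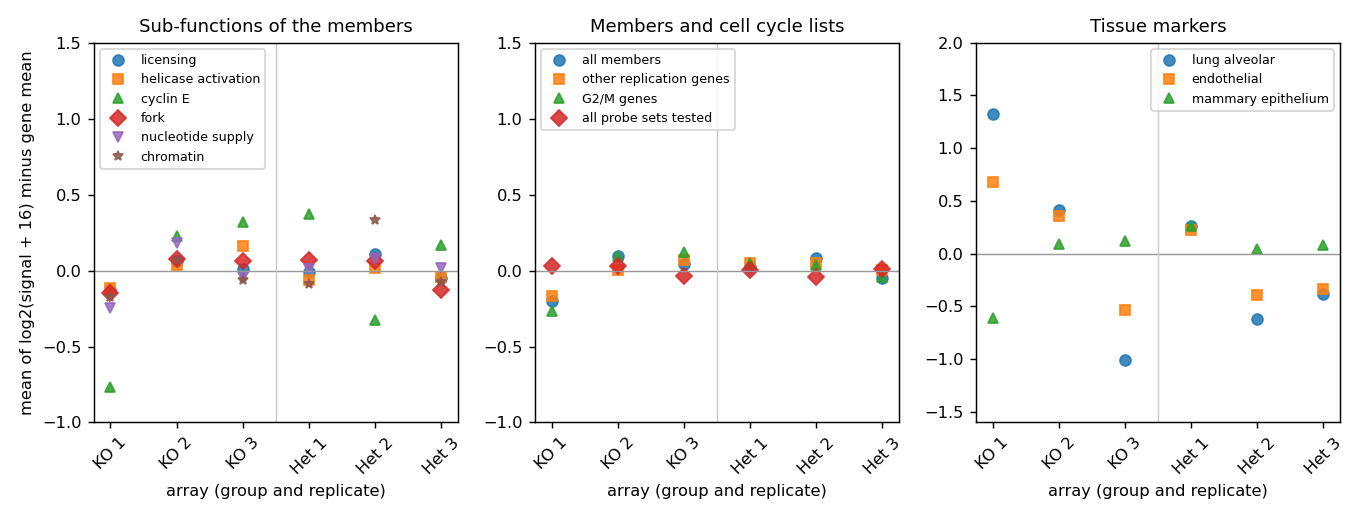
Mean deviation from each gene's own mean on each array, on the log2(signal + 16) scale, for the 6 roles (left), for the members, other cell cycle lists and all probe sets (middle) and for tissue markers (right). The members lie at -0.20 on KO replicate 1, where the lung alveolar markers lie at 1.32.

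Several probe sets of one gene allowed a check within the members. In all, 57 probe sets carried a member's symbol alone, and 51 of them passed the filter on dim signal. Of the 15 members with more than 1 probe set kept, 10 had differences of one sign on all of them and 5 had both signs, with a median gap of 0.19 between the highest and the lowest. Those with both signs were Mcm2, Mcm3, Mcm4, Rfc4 and Rrm2. Cdt1 was lower in KO on both of its probe sets kept, at -0.32 and -0.24, and the 4 probe sets of Mcm7 ran from -0.14 to -0.02.

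Dnmt1, Uhrf1 and Rpa2 were among the members with dimmer probe sets whose differences exceeded that of the one with the highest signal. Others included Mcm3 at 0.38 (1426653_at), Rrm1 at 0.24 (1448127_at), Mcm4 at -0.19 (1436708_x_at) and Mcm2 at -0.16 (1434079_s_at). The second Dnmt1 probe set, 1435122_x_at, had signals of 1249.7, 1046 and 1241 in KO metastases, against 1598, 1719.7 and 1817 in Het metastases. All KO arrays were below all Het arrays there, with a difference of -0.53 ± 0.23 (SE) and an unadjusted limma p of 0.0635. The second Uhrf1 probe set, 1415811_at, had signals of 291, 304 and 352 in KO metastases, against 88.7, 371 and 132 in Het metastases. Its difference was 0.86 ± 0.26 (SE), the largest in size among the kept probe sets of the members. Even so, Het replicate 2 exceeded every KO array. The counts of members by p given above rest on the brightest probe sets, so they do not cover this probe set. On the log2 scale its SD was 0.98 in Het, against 0.14 in KO, and averaging the Het arrays hides that spread from the fit. The second Rpa2 probe set, 1454011_a_at, had signals of 470.2, 581 and 646 in KO metastases, against 369.8, 464 and 408 in Het metastases, which did not overlap, with a difference of 0.43 ± 0.27 (SE). The second probe set of Prim1, at -0.04, had overlapping arrays, so the separation seen on its first was not repeated. Of the 51 probe sets kept, 1 lay wholly higher and 2 wholly lower in KO, beside 7.82% and 8.91% of all probe sets.

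**Figure D4:**
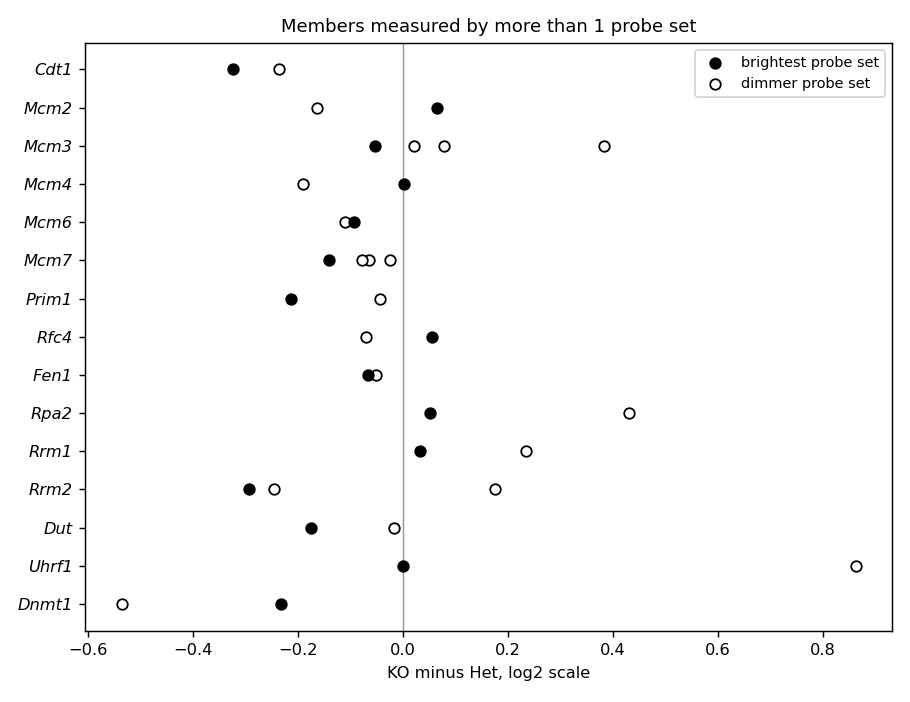
KO minus Het difference on the log2(signal + 16) scale for each kept probe set of the 15 members with more than 1, with the brightest as a filled point and the others as open points. The widest gap is that of Uhrf1, 0.86, and the points of 5 genes lie on both sides of 0.

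Among the other replication genes, the largest moderated t statistics in the positive direction belonged to Rpa1, a subunit of the single-strand binding complex, Dtymk, thymidylate kinase, and Rfc3, a clamp loader subunit, with differences of 0.20, 0.19 and 0.22. In the negative direction they belonged to Pold1, the catalytic subunit of polymerase delta, the phosphatase Cdc25a, which activates Cdk2, and Dck, deoxycytidine kinase, with differences of -0.41, -0.41 and -0.35. Pold1 had signals of 374, 424 and 390.5 in KO metastases, against 535, 570.2 and 494 in Het metastases, and Cdc25a had 437, 489.6 and 557 in KO metastases, against 675, 627 and 671 in Het metastases. For both genes each KO array was below each Het array, and their standard errors were 0.24 and 0.25. None of the 6 had an unadjusted limma p under 0.05.

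Of the regulators of E2F, 16 of the 18 listed were on the array and 15 passed the filter, with 6 higher and 9 lower in KO. E2f1 averaged 155 ± 11.5 in KO and 136 ± 15.6 in Het, and the repressor E2f8 averaged 321 ± 41.1 in KO and 409 ± 54.3 in Het, with differences of 0.17 and -0.33. Cyclin D1, encoded by Ccnd1, starts the release of E2F from the retinoblastoma protein. It averaged 2550.2 ± 612 in KO and 1067 ± 541 in Het, a difference of 1.33 that did not pass after adjustment. On the log2 scale its SD was 0.72 in Het, against 0.37 in KO, and averaging the Het arrays hides that spread from the fit. The CDK inhibitor Cdkn1a had a difference of 0.42, and the CDK inhibitor Cdkn1b and the retinoblastoma gene Rb1 had differences of -0.44 and -0.42. E2f2 itself was not analysed here. The genes of G2 and mitosis with the largest positive statistics were the kinetochore motor Cenpe at 1.27, the survivin gene Birc5 at 0.38 and the kinase Aurkb at 0.11. Those with the largest negative ones were the proliferation marker Mki67 at -0.37, the checkpoint kinase Bub1b at -0.35 and the mitotic motor Kif23 at -0.26. For Cenpe the log2 SD was 0.73 in Het, against 0.15 in KO, which averaging the Het arrays likewise hides.

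Across the series, every array had been scaled to the same trimmed mean signal of 500.2, and median signals ran from 137.6 to 164.8. Het replicate 1 had 3' to 5' signal ratios above those of the other arrays, at 2.38 for actin, against 1.48 to 1.73, and at 11.8 for the transferrin receptor, against 3.25 to 5.15. It was the highest array for 5 members and the lowest for 1. Both KO replicate 1 and Het replicate 1 were also left out together, a choice made after seeing the data. Ccne2 then had a difference of 0.74 and an unadjusted limma p of 0.0412, the only 1 of the 31 members under 0.05, beside 2.95% of all probe sets, and no member passed after adjustment.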

How the data were processed

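RNA from 6 lung metastases was measured on Affymetrix arrays. The values deposited by the authors are intensities (MAS5 signals) on a linear scale, and MAS5 and Affymetrix Expression Console are named in the submitters' processing notes, with versions not given in the sources used here. The RNA was extracted with RNeasy columns, per the labels' protocols.

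There were 22690 probe sets in the table, including 64 controls. The platform annotation gave 1 symbol for 20380, several for 691 and none for 1555. Of those with 1 symbol, 20351 matched a GRCm38.p6 gene table by Entrez ID, and 0 symbols needed an update. A probe set shared by Tyms and a second gene was not used. No build is named for the values, so the coordinates given are those of the RefSeq promoter windows on GRCm38.p6 alone.

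Signals were transformed to log2(signal + 16), so differences of dim genes are understated. After removal of controls and of the dimmest 40% by mean log2 value, 13575 probe sets were tested. Groups came from the genotype labels, and replicates were numbered in sample order. KO samples were compared with the averaged Het sample in limma 3.58.1 (R 4.3.3), by lmFit and eBayes with a mean-variance trend and Benjamini-Hochberg adjustment over all probe sets at 0.05. The fit takes the spread of the averaged Het sample to be that of the KO samples, and SE is that of this fit. Nothing says that samples came from separate animals, so p measures only the spread between samples. The procedure was run on simulated data in which all arrays were drawn independently with the KO spread. That setting cannot test the averaging of Het arrays that share a title number.

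Members and lists were chosen with earlier results of these data known. Every member is named. All 6 values are given for the member of each role with the highest signal, those with the most negative and most positive moderated t, and any whose arrays do not overlap, and up to 3 genes per direction are named from each other list. Dimmer probe sets with larger differences were named after their values were seen. Promoter windows were missing from the table for Ccne2, Gins1, Gins2 and Mcm4.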

Additional observations from a re-analysis of the deposited data

How the results depend on the processing

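Across 18 alternatives (the unit of replication, pseudocount, filter, normalization, probe set, variance trend and arrays left out), limma called 0 of the 31 members and 0 of all probe sets at an adjusted p under 0.05, while probe sets with an unadjusted p under 0.05 numbered from 162 to 1394, beside 301 as reported. Leaving out both KO replicate 1 and Het replicate 1 was chosen after seeing the data. In the alternative with the dimmest probe set, those of Cdt1, Mcm3, Mcm10, Slbp and Tyms had failed the filter and were not tested. These genes could not be called there. Of 558 member differences recomputed, 502 kept their sign and 56, in 19 members, turned it. Changes of the unit of replication, the filter or the variance trend leave a member's difference as it was. Part of the 502 was therefore fixed in advance. The 19 members include Mcm4, Mcm10 and Uhrf1, 3 members within 0.005 of 0 as reported. The cause was not tested. With arrays left out, singly or as that pair, the differences ran from -0.073 to 0.74 for Ccne2, -0.15 to 0.086 for Cdc45, -0.13 to 0.060 for Chaf1b, -0.19 to 0.049 for Fen1, -0.040 to 0.20 for Mcm2, -0.14 to 0.015 for Mcm3, -0.073 to 0.10 for Mcm4, -0.17 to 0.11 for Mcm5, -0.10 to 0.082 for Pcna, -0.023 to 0.13 for Rfc4, -0.094 to 0.22 for Rpa2, -0.065 to 0.26 for Rrm1, -0.53 to 0.037 for Rrm2, -0.080 to 0.15 for Mcm10 and -0.17 to 0.25 for Uhrf1. The count of members whose arrays did not overlap ran from 0 to 6 higher and from 1 to 4 lower in KO, while the share of all probe sets ran from 10.7% to 19.3% higher and from 12.1% to 19.8% lower, and the helicase activation median from -0.066 to 0.15. On the dimmest probe set of each gene, differences were 0.034 for Cdt1, -0.16 for Mcm2, -0.19 for Mcm4, -0.070 for Rfc4, 0.18 for Rrm2, 0.28 for Slbp and 0.29 for Tyms, the chromatin median was 0.11, the nucleotide median 0.24 and 1 member lay wholly higher in KO, beside 7.82% of all probe sets. Those of Cdt1, Slbp and Tyms had failed the filter, with mean signals of 0.92, 9.7 and 3.8, below the pseudocount of 16. Their signs therefore carry little weight, yet they enter the sign counts above and, for Slbp and Tyms, these medians. With the mean of all probe sets, dim ones included, differences were -0.049 for Mcm2, 0.078 for Mcm3, -0.094 for Mcm4, -0.0067 for Rfc4, 0.059 for Slbp and 0.043 for Tyms. Median centring, which placed the median of all probe sets at -0.10, gave -0.013 for Mcm2, -0.077 for Mcm4, -0.074 for Mcm10, -0.079 for Uhrf1, -0.022 for Rfc4, -0.014 for Rfc5, -0.026 for Rpa2 and -0.046 for Rrm1. Quantile normalization gave -0.0087 for Mcm10, and a pseudocount of 64 gave -0.0016 for Uhrf1. Members wholly lower in KO were 2 with median centring (Prim1 and Tyms), beside 11.2% of all probe sets, and 3 with quantile normalization (Prim1, Cdt1 and Tyms), beside 10.004%. No paired analysis was possible because the replicate numbers follow the order of the samples and pair nothing. The number of arrays, the shared title number of the Het arrays and unused detection calls limit every value.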
